A study of Mus musculus with 18 samples.

Results

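The 8 microRNA (miRNA) precursors described here form 3 genomic clusters. The first holds mmu-mir-200b, mmu-mir-200a and mmu-mir-429 and the next mmu-mir-200c and mmu-mir-141, and together these 5 make up the miR-200 family. The last holds mmu-mir-183, mmu-mir-96 and mmu-mir-182. The prefix mmu, for mouse, is left out from here on. The 8 were chosen by name, and all are among the 1150 miRNA entries of a table of 1234 small RNAs. Liver small RNA of 9 male C57BL/6 mice, 8 weeks old at the start, was sequenced with both PANDORA-seq and traditional-seq, in 18 libraries in all. Mice 15 to 18 (n = 4) were fed 0.5% cholesterol (high-cholesterol diet, HCD) and mice 1 to 5 (n = 5) 0.02% cholesterol (low-cholesterol diet, LCD), and the labels name no transgene or drug. PANDORA-seq treats RNA with the enzymes T4PNK and AlkB before library construction, which makes fragments with modified bases or blocked ends readable, whereas traditional-seq uses untreated RNA. The deposited descriptions disagree on the feeding time, given as 8, 9 or 4 weeks. The comparisons ask how the members differ between the diets within each method, and between the methods within each diet.

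A miRNA is cut from a hairpin precursor and guides repression of mRNAs that pair with its seed, the stretch of bases near its 5′ end. The miR-200 family maintains the epithelial state by repressing Zeb1 and Zeb2, which encode repressors of E-cadherin, and in liver it is associated with the epithelium of the bile ducts more than with hepatocytes. The miR-183 cluster is best known in sensory cells such as hair cells and photoreceptors. In cultured liver cells its locus has been described as a target of SREBP-2, the transcription factor that turns on cholesterol synthesis when sterol is low, with Fbxw7 and Insig2 among the mRNAs it represses.

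The arms usually taken as the active strand are printed here because their near identity bears on how reads can be told apart between members. The capitals mark the seed (bases 2 to 8), and the sequences are those of RefSeq for GRCm38.p6. The family falls into 2 seed groups that cut across its 2 clusters, AAUACUG and AACACUG.
mmu-miR-200b-3p: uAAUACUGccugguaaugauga
mmu-miR-200c-3p: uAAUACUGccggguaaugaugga
mmu-miR-429-3p: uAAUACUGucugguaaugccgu
mmu-miR-200a-3p: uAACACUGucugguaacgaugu
mmu-miR-141-3p: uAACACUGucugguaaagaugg
mmu-miR-183-5p: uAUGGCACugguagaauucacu
mmu-miR-96-5p: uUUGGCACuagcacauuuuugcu
mmu-miR-182-5p: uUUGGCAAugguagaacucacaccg

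Counted from the 5′ end over 22 letters, miR-200b-3p and miR-200c-3p differ at 2 (U11G and A22G), and miR-200a-3p and miR-141-3p also at 2 (C17A and U22G). The seeds of the miR-183 cluster all differ: miR-183-5p and miR-182-5p differ at 4 of 22 letters, A2U and C8A among them, while miR-96-5p and miR-182-5p differ at 11 of 23. The mapping allowed 1 mismatch, and the values of the miR-200 members were not whole multiples of the value of 1 read (tolerance 0.02 of a read) in 7 of 9 traditional-seq libraries for each of the 5. The values of mir-183, mir-96 and mir-182 were whole multiples in 9 of 9. Levels of single miR-200 members are therefore uncertain, because reads could be divided among them.

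All 8 genes lie on the minus strand (GRCm38.p6). Mir200b (chr4:156055681-156055750), Mir200a (chr4:156054896-156054985) and Mir429 (chr4:156053905-156053987) lie within 1846 bp in introns of the coding gene Ttll10, with Mir429 also in an exon of the noncoding transcript Gm13648. Mir200c (chr6:124718322-124718390) and Mir141 (chr6:124717914-124717985) lie within 477 bp in an intron of the antisense gene Gm15884, 1372 and 964 bp from the coding gene Phb2. Mir183 (chr6:30169668-30169737), Mir96 (chr6:30169446-30169551) and Mir182 (chr6:30165918-30165992) span 3820 bp and overlap no other annotated gene, the nearest coding gene being Nrf1 at 12460 bp from Mir182.

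The values are RPM per precursor, its reads scaled to a common library total, with both arms summed. The depth, inferred from the RPM that 1 read is worth in each library, was 2511895 to 10477638 reads in PANDORA-seq and 1934330 to 25488322 reads in traditional-seq. miRNAs took 6.13 to 13.6% of reads in HCD and 1.59 to 4.41% in LCD PANDORA-seq libraries, against 57.0 to 77.6% in HCD and 59.7 to 66.2% in LCD traditional-seq libraries. The 8 members together made up 0.0459% ± 0.0087 (SD, n = 4) of miRNA reads in HCD-fed mice and 0.127% ± 0.037 (SD, n = 5) in LCD-fed mice by traditional-seq, whereas miR-122 alone, the miRNA that defines hepatocytes, made up 26.3 to 64.4%. Biliary protein markers are not measured in small RNA, so the origin of the members in bile ducts could not be checked. In whole liver, fewer cells of a type and less RNA per cell cannot be told apart.

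In traditional-seq all 8 members were above 0 in all 9 libraries. In LCD-fed mice mir-182 was the highest at 367 ± 83.1 RPM (SD, n = 5), ranked 59 among miRNAs, and its range did not overlap that of mir-183 (168 ± 48.8 RPM), the next in order. mir-200b (100.4 ± 47.8 RPM), mir-200a (97.0 ± 63.3 RPM) and mir-141 (47.01 ± 28.3 RPM) followed with overlapping ranges, also with that of mir-183 for mir-200b, and mir-200c (15.9 ± 8.28 RPM), mir-429 (5.47 ± 3.58 RPM) and mir-96 (3.97 ± 1.47 RPM) came last. In HCD-fed mice the order differed: mir-200b was first (76.2 ± 26.9 RPM, SD, n = 4), and the ranges of neighbours overlapped down to mir-200c (12.5 ± 5.86 RPM), with mir-182 at 67.7 ± 66.5 RPM, ranked 91. Only mir-429 (3.32 ± 1.06 RPM) and mir-96 (0.821 ± 0.287 RPM) stood below the members above them without overlap.

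**Figure D1:**
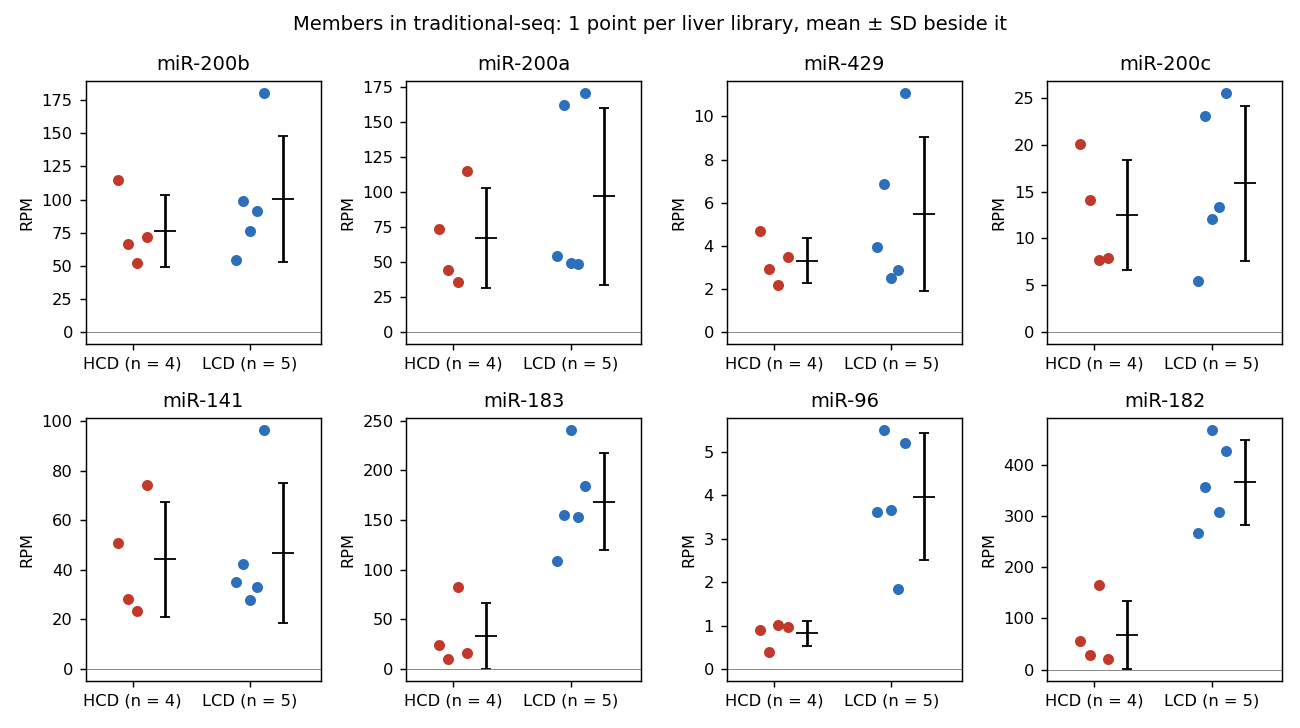
RPM of each member (linear axes from 0) in each traditional-seq library of HCD-fed mice (red, left) and LCD-fed mice (blue, right), with mean ± SD. The HCD points of miR-183, miR-96 and miR-182 all lie below the LCD points, and for the 5 miR-200 members the diets overlap.

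By traditional-seq the miR-183 cluster was lower in mice on the HCD than in those on the LCD, and the miR-200 family did not pass the test. mir-182 had 56.3, 29.1, 165 and 20.6 RPM in HCD-fed mice 15 to 18, against 268, 358, 469.7, 309 and 428 RPM in LCD-fed mice 1 to 5. mir-183 had 24.1, 10.3, 82.2 and 16.7 RPM in HCD-fed mice 15 to 18, against 109, 155, 241, 153 and 185 RPM in LCD-fed mice 1 to 5. In both, every HCD-fed mouse was below every LCD-fed mouse, HCD-fed mouse 17 was the highest of its group and LCD-fed mouse 3 the highest of its own. mir-96, the least abundant member of its cluster, had 0.902, 0.396, 1.02 and 0.966 RPM in HCD-fed mice 15 to 18, against 3.62, 5.51, 3.67, 1.85 and 5.22 RPM in LCD-fed mice 1 to 5, again without overlap. The HCD values of mir-96 rest on 3 to 23 reads and the LCD values on 7 to 61.

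The mean RPM was 5.42-fold lower for mir-182, 5.05-fold lower for mir-183 and 4.84-fold lower for mir-96 in HCD-fed mice. In limma on log2(RPM + 1) after TMM scaling, which sets the libraries to a common level by the bulk of the RNAs, the fold changes of HCD over LCD on the log2 scale were -2.19 for mir-182 (95% interval -3.54 to -0.84, adjusted p = 0.037), -2.03 for mir-183 (SE 0.62, adjusted p = 0.045) and -0.98 for mir-96 (-1.51 to -0.44, adjusted p = 0.023). The pseudocount of 1 RPM understates the change of mir-96, which is near 1 RPM in the HCD-fed mice and reached that level in 1 of 4 of them. It passed the filter only through the LCD libraries, so its direction was set by the filter. Thus 3 of 8 members were called, all lower, where 14.6% of the 349 RNAs tested were called, 7.74% lower and 6.88% higher. RPM ranges lay wholly lower in HCD for these 3 members and for 17.5% of the RNAs tested.

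The calls depended on single libraries under TMM scaling but not their direction. Leaving out 1 library at a time left 0 to 3 of the 3 calls, with adjusted p between 0.00089 and 0.079 for mir-182, 0.00089 and 0.11 for mir-183 and 0.019 and 0.059 for mir-96, and all 3 kept an unadjusted p under 0.05 each time. Without LCD-fed mouse 3 or HCD-fed mouse 15 none was called (3 at an unadjusted p under 0.05 in limma), without HCD-fed mouse 16 or 18 or LCD-fed mouse 1, 4 or 5 only 1 was, without LCD-fed mouse 2 there were 2, and without HCD-fed mouse 17 all 3 were called, with log2 fold changes of -3.05 for mir-182 and -2.88 for mir-183. With the RPM as deposited the log2 fold changes were -2.85 for mir-182 (adjusted p = 0.00051), -2.69 for mir-183 (adjusted p = 0.00096) and -1.41 for mir-96 (adjusted p = 0.0070), where 16.3% of RNAs were called lower. Scaled by miRNA reads they were -2.89, -2.73 and -1.44 (14.0% of RNAs called lower), and without miR-122 and miR-148a in that total -2.46, -2.30 and -1.17 (10.3% called lower), with all 3 called each time. These scalings gave the median of all RNAs tested as -0.53 (RPM as deposited), -0.56 (miRNA reads) and -0.18 (without miR-122 and miR-148a), against 0.076 under TMM, and changed the split of all calls under TMM, 24 higher and 27 lower, to 3 higher and 57 lower with RPM as deposited, 3 higher and 49 lower by miRNA reads and 9 higher and 36 lower without miR-122 and miR-148a.

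Among the miR-200 family, 0 of 5 members passed in the same limma fit, and 0 had an unadjusted p under 0.05. mir-200b, the most abundant member, had 115, 66.7, 51.9 and 71.8 RPM in HCD-fed mice 15 to 18, against 54.5, 99.0, 76.5, 91.7 and 180.3 RPM in LCD-fed mice 1 to 5. mir-200a, its neighbour in the cluster, had 74.0, 44.4, 35.9 and 115 RPM in HCD-fed mice 15 to 18, against 54.6, 162, 49.6, 48.4 and 171 RPM in LCD-fed mice 1 to 5. The diets overlapped, and LCD-fed mouse 5 was the highest of its group in both, joined by mouse 2 for mir-200a. mir-141 had 51, 28.4, 23.4 and 74.3 RPM in HCD-fed mice 15 to 18, against 34.98, 42.5, 27.9, 33.01 and 96.7 RPM in LCD-fed mice 1 to 5, where mouse 5 again stood above the rest. mir-200c ranged from 7.76 to 20.03 RPM in HCD-fed and from 5.43 to 25.5 RPM in LCD-fed mice, and mir-429 from 2.18 to 4.69 RPM in HCD-fed and from 2.52 to 11.1 RPM in LCD-fed mice.

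The log2 fold changes of HCD over LCD under TMM lay between 0.09 for mir-429 (95% interval -0.51 to 0.69, adjusted p = 0.91) and 0.57 for mir-141 (-0.14 to 1.29, adjusted p = 0.33). All 5 were positive under TMM and negative with the RPM as deposited or by miRNA reads, and without miR-122 and miR-148a in the total mir-200b, mir-200c and mir-141 were positive and mir-200a and mir-429 negative. For mir-200b the value was 0.32 under TMM, -0.38 by miRNA reads and 0.05 without those miRNAs.

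**Figure D2:**
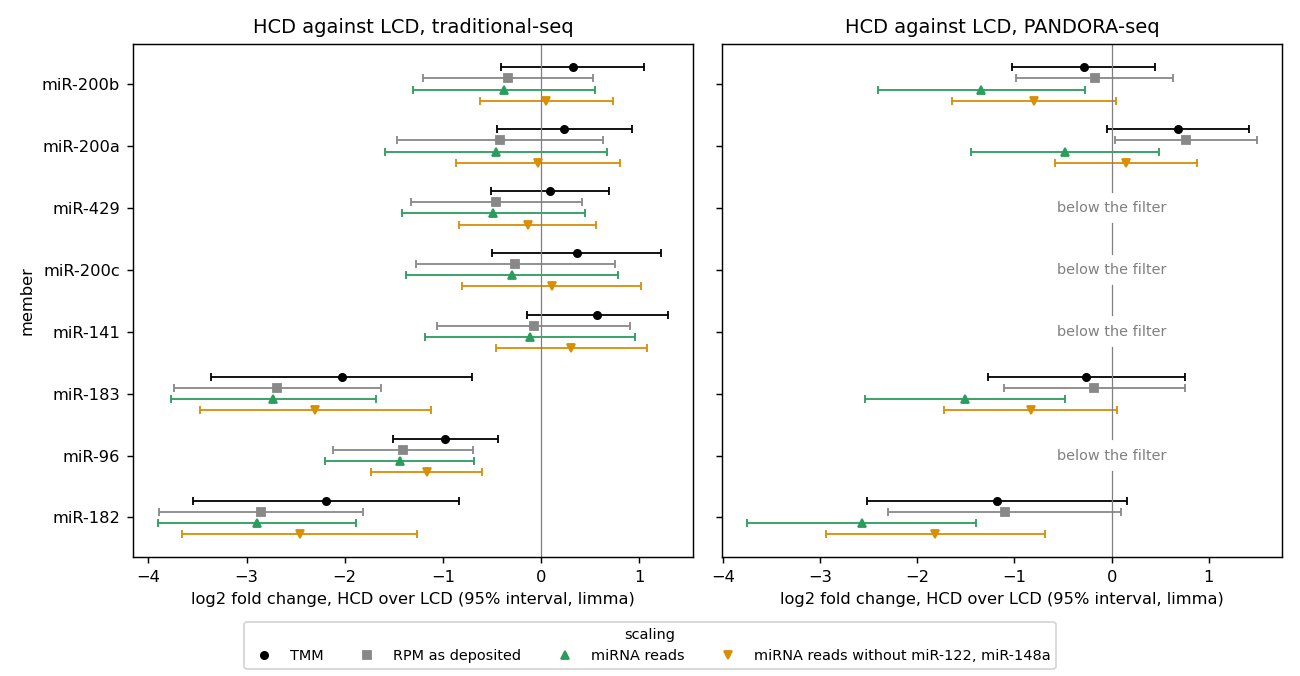
Log2 fold change of HCD over LCD (horizontal axis) with its 95% interval from limma for each member (vertical axis), by 4 scalings (symbols), in traditional-seq (left) and PANDORA-seq (right). In traditional-seq the intervals of miR-183, miR-96 and miR-182 lie below 0 under each scaling and those of the miR-200 members include 0, and in PANDORA-seq 4 members were below the filter.

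Within a library the ratio of mir-182 to mir-200b does not depend on the scaling. Its log2 value was -0.59 ± 1.54 (SD, n = 4) in HCD-fed and 1.95 ± 0.53 (SD, n = 5) in LCD-fed mice by traditional-seq, a difference of -2.54 (two-sided exact permutation test, p = 0.016, adjusted p = 0.24 over 18 ratio tests, where the smallest possible p was 0.0079). Summed over the cluster, the log2 ratio of the miR-183 cluster to the miR-200 family was -1.70, -1.98, 1.03 and -2.83 in HCD-fed mice 15 to 18, against 1.31, 0.64, 2.08, 1.29 and 0.35 in LCD-fed mice 1 to 5. HCD-fed mouse 17 lay within the LCD range, and the other 3 HCD-fed mice lay below it. Within the cluster mir-182 made up 65.6% ± 8.36 (SD, n = 4) of the RPM in HCD-fed and 68.3% ± 1.96 (SD, n = 5) in LCD-fed mice. These means differ by less than the SD of the HCD-fed mice but by more than that of the LCD-fed mice. The log2 ratio of mir-183 to mir-182 was -1.01 ± 0.51 in HCD-fed and -1.14 ± 0.14 in LCD-fed mice (n = 4 and 5, exact permutation p = 0.69, adjusted p = 0.82).

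**Figure D3:**
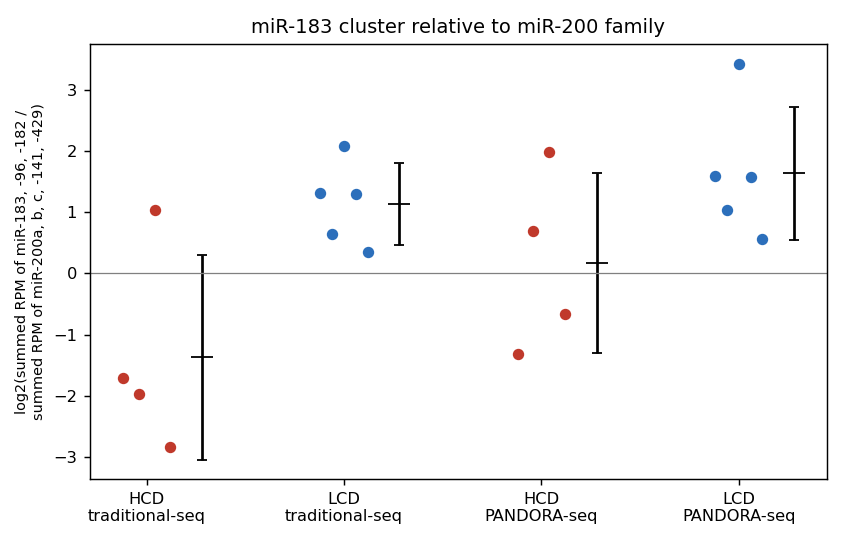
Log2 ratio of the summed RPM of the miR-183 cluster to that of the miR-200 family (vertical axis) in each library, HCD (red) left of LCD (blue) for traditional-seq and then PANDORA-seq, with mean ± SD. In traditional-seq 3 HCD-fed mice lie between -2.83 and -1.70 and mouse 17 at 1.03, inside the LCD range of 0.35 to 2.08.

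Markers of other cells were compared beside these results. In the same traditional-seq fit 1 of 5 hepatocyte miRNAs was called, miR-148a, higher in HCD by 1.05 on the log2 scale (adjusted p = 0.037), and the summed hepatocyte list ranged from 454600 to 634720 RPM in HCD-fed and from 370900 to 512170 RPM in LCD-fed mice. Of 6 other miRNAs of epithelia, mir-203, mir-205, mir-375, mir-31, mir-34b and mir-34c, 4 were tested and 0 called (median log2 fold change -0.44, against 0.076 over all RNAs), with sums of 339 to 699 RPM in HCD-fed and 451 to 806 RPM in LCD-fed mice. The lists of endothelium (1 tested), blood and immune cells (7) and stellate cells and fibroblasts (6) had 0 called. None of the listed miRNAs was at 0 throughout a diet group in traditional-seq. The part of these cell types in the result for the miR-183 cluster was not tested.

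In PANDORA-seq the members were rare, and none passed the test by diet. mir-182 had 1.68, 5.73, 22.5 and 3.04 RPM in HCD-fed mice 15 to 18, against 14.3, 6.86, 26.7, 11.9 and 10.5 RPM in LCD-fed mice 1 to 5. mir-183 had 1.68, 4.01, 8.56 and 3.28 RPM in HCD-fed mice 15 to 18, against 5.97, 3.43, 8.81, 3.02 and 3.03 RPM in LCD-fed mice 1 to 5. The diets overlapped in both, HCD-fed mouse 17 was again the highest of its group, and LCD-fed mouse 3 of its own. The HCD values rest on 6 to 63 reads for mir-182 and 6 to 42 reads for mir-183.

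Under TMM the log2 fold change of HCD over LCD was -1.18 for mir-182 (95% interval -2.52 to 0.15, adjusted p = 0.19) and -0.26 for mir-183 (-1.27 to 0.75, adjusted p = 0.71) in limma. Of 8 members 4 passed the filter and 0 were called (0 at an unadjusted p under 0.05), where 25.8% of the 244 RNAs tested were called. Without HCD-fed mouse 17 mir-182 was called, at -1.98 (adjusted p = 0.017).

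mir-200a had 3.08, 3.58, 5.17 and 3.39 RPM in HCD-fed mice 15 to 18, against 2.79, 1.53, 1.08, 2.01 and 1.81 RPM in LCD-fed mice 1 to 5. These values rest on 11 to 37.5 inferred reads in HCD and 7 to 12 in LCD libraries. Every HCD-fed mouse was above every LCD-fed mouse in RPM, as for 13.5% of the RNAs tested, but the log2 fold change of 0.68 (-0.05 to 1.41) had an adjusted p of 0.16. Its direction depended on the scaling. Scaled by miRNA reads the value was -0.48 (adjusted p = 0.40), and without miR-122 and miR-148a in that total 0.15 (adjusted p = 0.80, limma for both). mir-200b had 3.22, 1.67, 1.604 and 3.74 RPM in HCD-fed mice 15 to 18, against 3.58, 3.07, 1.61, 1.84 and 5.34 RPM in LCD-fed mice 1 to 5, and the diets overlapped (log2 fold change -0.29, adjusted p = 0.55). Its values rest on 4.5 to 17.5 inferred reads in HCD and 9 to 30 in LCD libraries.

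The other 4 members were near the limit of detection in PANDORA-seq. mir-141 had 0.535 to 2.46 RPM in HCD-fed and 0.391 to 1.01 RPM in LCD-fed mice, and mir-200c at most 0.535 RPM in HCD-fed and 0.890 RPM in LCD-fed mice. mir-429 was above 0 in 1 of 4 HCD and 1 of 5 LCD libraries, and mir-96 in 1 of 4 HCD and 2 of 5 LCD libraries. A count of 0 allows up to 3 reads, which is 0.286 to 1.07 RPM in the HCD and 0.294 to 1.19 RPM in the LCD libraries, so a difference between the diets was not detectable at this depth for these 2 members.

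**Figure D4:**
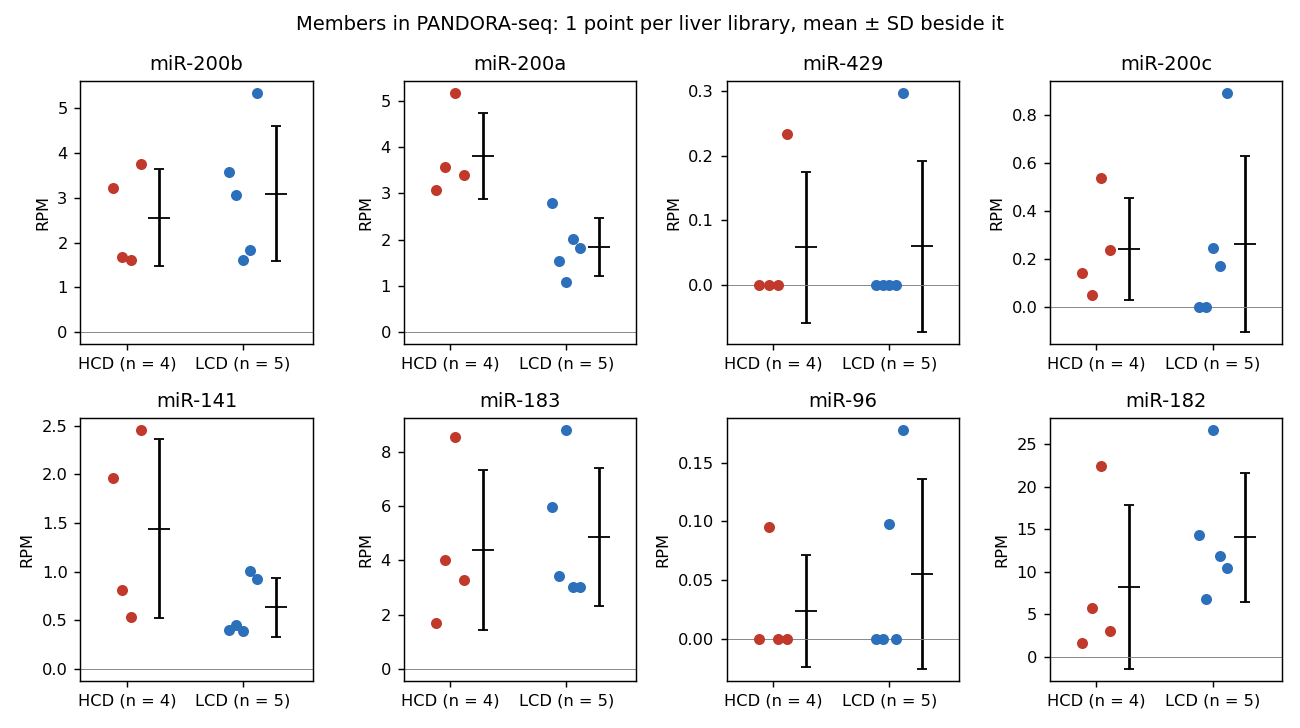
RPM of each member (linear axes from 0) in each PANDORA-seq library of HCD-fed mice (red, left) and LCD-fed mice (blue, right), with mean ± SD. The HCD points of miR-200a lie above the LCD points, those of miR-182 and miR-183 overlap them, and miR-429 and miR-96 are at 0 in most libraries.

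The share of miRNA reads in PANDORA-seq differed between the diets without overlap, and members were also expressed per miRNA read, as RPM of the miRNA reads of their library. On that scale mir-182 had 26.5, 67.6, 165 and 49.6 in HCD-fed mice 15 to 18, against 361, 408, 606, 552 and 662 in LCD-fed mice 1 to 5. On the same scale mir-183 had 26.5, 47.3, 62.9 and 53.4 in HCD-fed mice 15 to 18, against 151, 204, 199.8, 140.0 and 190.7 in LCD-fed mice 1 to 5. Neither overlapped, as for 25.4% of the RNAs tested. With miRNA reads as the scale 3 of 4 members were called lower in HCD, mir-182 at -2.57 (adjusted p = 0.00075), mir-183 at -1.51 (adjusted p = 0.018) and mir-200b at -1.34 (adjusted p = 0.036), where 46.3% of the RNAs were called lower and the median of all RNAs was -1.27. With miR-122 and miR-148a left out of the miRNA total only mir-182 was called, at -1.81 (adjusted p = 0.018, with 23.8% of RNAs called lower and a median of -0.66). In the PANDORA-seq fit with TMM 3 of 5 hepatocyte miRNAs were higher in HCD, miR-148a by 2.06, miR-122 by 1.73 and miR-192 by 1.30 on the log2 scale, with list sums of 53158 to 125850 RPM in HCD-fed and 11088 to 38235 RPM in LCD-fed mice, and their part in the result was not tested. In the TMM fit the other epithelial (1 tested), endothelial (1) and stellate (5) lists had 0 called, and of 2 blood miRNAs mir-150 was higher by 0.93. mir-150 averaged 1.99 RPM in HCD and 0.504 RPM in LCD, the latter below the 1 RPM of the filter, so its direction may have been set by the filter. In traditional-seq its log2 fold change was -0.66 (limma, adjusted p = 0.44). mir-205 was at 0 in every LCD library of PANDORA-seq. In HCD it was at 0.280 and 0.0954 RPM in mice 15 and 16, which is 1 read each, and at 0 in mice 17 and 18, so no difference can be read from it. Of the blood list 2 miRNAs were at 0 throughout LCD and 1 throughout HCD.

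Among ratios within PANDORA-seq libraries, the log2 ratio of mir-200a to mir-200b was 0.65 ± 0.90 (SD, n = 4) in HCD-fed and -0.68 ± 0.64 (SD, n = 5) in LCD-fed mice (exact permutation p = 0.032, adjusted p = 0.24), and that of mir-183 to mir-182 was -0.45 ± 0.68 in HCD-fed and -1.53 ± 0.40 in LCD-fed mice (exact permutation p = 0.040, adjusted p = 0.24). Of the 18 ratio tests 0 passed after adjustment, and 3 had an unadjusted p under 0.05. The smallest p the exact permutation test could give was 0.0079, or 0.029 between the methods in HCD-fed mice. Over 18 tests a ratio at that p could not pass unless others were also low, so the absence of a pass says little.

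Both methods used RNA of the same mice, which the test of the methods without a block treats as separate. HCD-fed mouse 17 and LCD-fed mouse 3 were the highest of their diet for mir-182 and mir-183 in RPM by both methods. Per miRNA read in PANDORA-seq, LCD-fed mouse 5 was the highest for mir-182 (662, against 606 in mouse 3). For mir-183 it was LCD-fed mouse 2 (204, against 199.8 in mouse 3). Whether the diet effect differed between the methods (PANDORA-seq minus traditional-seq) was tested in limma over all 18 libraries, and 0 of 8 members passed under TMM, where 3.56% of 365 RNAs did. The difference was 1.46 for mir-183 (95% interval -0.16 to 3.08, adjusted p = 0.45), 0.63 for mir-182 (adjusted p = 0.81) and 0.60 for mir-96 (adjusted p = 0.37), the last being the 1 member with an unadjusted p under 0.05. In the miR-200 family it was 0.41 for mir-200a, -0.80 for mir-200b, -0.06 for mir-429, -0.44 for mir-200c and -0.06 for mir-141, with adjusted p between 0.61 and 0.97. With the RPM as deposited mir-183 (2.51, adjusted p = 0.019) and mir-96 (1.37, adjusted p = 0.018) passed, both higher, as for 11.8% of RNAs. mir-96 entered this fit only through traditional-seq and was at most 0.178 RPM in PANDORA-seq, so its difference restates its traditional-seq value of -1.41. By miRNA reads the difference was 0.76 for mir-183 and -0.08 for mir-182, and 0 members passed.

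**Figure D5:**
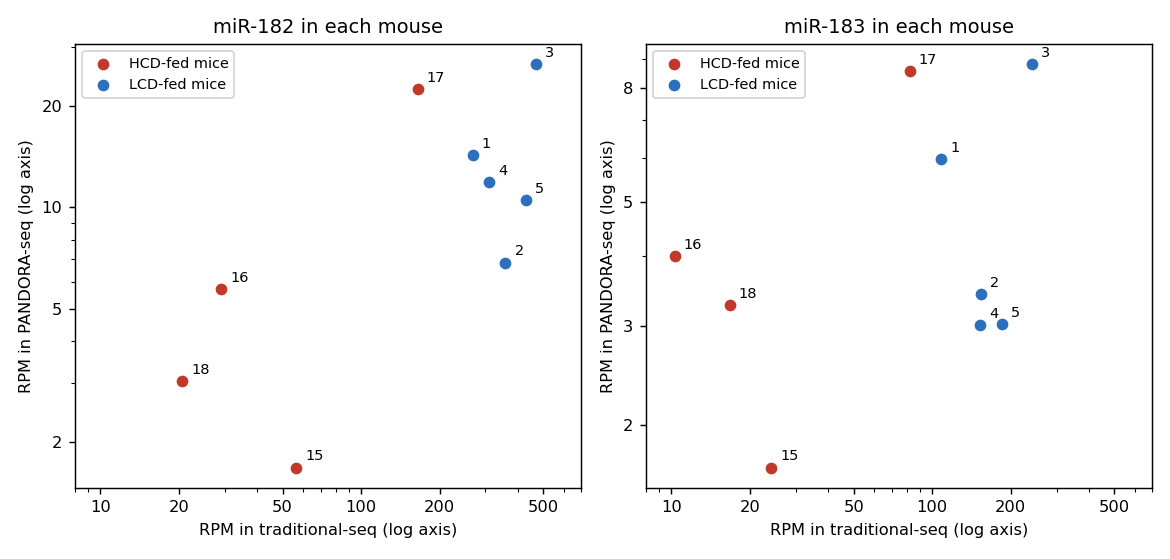
RPM in PANDORA-seq (vertical, log axis) against RPM in traditional-seq (horizontal, log axis) for miR-182 (left) and miR-183 (right), 1 point per mouse with its number, HCD-fed in red and LCD-fed in blue. Mouse 17 lies above the other HCD-fed mice and mouse 3 above the other LCD-fed mice on both axes of both plots.

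Between the methods the members were lower in PANDORA-seq, as were most RNAs. In LCD-fed mice the mean RPM in PANDORA-seq against traditional-seq was 14.1 ± 7.57 against 367 ± 83.1 for mir-182 and 4.85 ± 2.53 against 168 ± 48.8 for mir-183 (SD, n = 5 each). For mir-200b it was 3.09 ± 1.503 in PANDORA-seq and 100.4 ± 47.8 in traditional-seq, and for mir-200a 1.84 ± 0.633 in PANDORA-seq and 97.0 ± 63.3 in traditional-seq (SD, n = 5 each). These are 26.1-fold, 34.7-fold, 32.5-fold and 52.6-fold lower in PANDORA-seq. In limma on the RPM as deposited 8 of 8 members were called lower, with log2 fold changes between -4.90 (mir-183) and -2.18 (mir-96), where 70.5% of the 325 RNAs tested were called lower and the median of all RNAs was -2.63. mir-141, mir-200c, mir-429 and mir-96 passed the filter through traditional-seq, so their direction was set by the filter.

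In HCD-fed mice mir-182 averaged 8.23 ± 9.64 RPM by PANDORA-seq, against 67.7 ± 66.5 RPM by traditional-seq (SD, n = 4 each), 8.22-fold lower in PANDORA-seq. mir-183 averaged 4.38 ± 2.95 RPM by PANDORA-seq, against 33.3 ± 33.1 RPM by traditional-seq (SD, n = 4 each), 7.61-fold lower. mir-200b was 29.8-fold and mir-200a 17.7-fold lower. In limma 7 of 7 tested members were called lower, where 61.5% of the 312 RNAs were and the median of all was -1.84, with mir-96 not tested. mir-141, mir-200c and mir-429 passed the filter only through traditional-seq here too. The interval for mir-182 was -4.33 to -1.58 on the log2 scale and its ranges overlapped between the methods.

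mir-182 had 518 ± 129 RPM of miRNA reads in PANDORA-seq and 575 ± 131 in traditional-seq of LCD-fed mice (SD, n = 5 each), and in HCD-fed mice 77.2 ± 60.9 by PANDORA-seq and 96.2 ± 87.3 by traditional-seq (SD, n = 4 each). mir-183 had 177 ± 29.5 in PANDORA-seq and 263 ± 73.2 in traditional-seq of LCD-fed mice (SD, n = 5 each), and in HCD-fed mice 47.5 ± 15.4 by PANDORA-seq and 47.7 ± 43.5 by traditional-seq (SD, n = 4 each). On this scale 1 of 8 members was called lower in LCD-fed mice, mir-141 at -1.19 (adjusted p = 0.043, with 17.5% of RNAs called lower), and 4 of 7 in HCD-fed mice, mir-200b, mir-429, mir-200c and mir-141, at -1.75, -0.88, -1.70 and -1.67 (25.6% of RNAs called lower). Of these calls only that of mir-200b is for a member that passed the filter in both methods. For mir-182 the log2 difference was -0.15 (95% interval -0.95 to 0.64) in LCD-fed and -0.24 (-1.83 to 1.35) in HCD-fed mice. Without miR-122 and miR-148a in the total 0 of 8 members were called in LCD-fed mice (limma, 1 at an unadjusted p under 0.05, with 15.4% of RNAs called lower) and 1 of 7 in HCD-fed mice, mir-200c at -1.18 (17% called lower), which passed the filter only through traditional-seq. Under TMM 8 of 8 were called lower in LCD-fed mice, where 54.2% of RNAs were, and in HCD-fed mice 5 of 7, where 37.2% were, with mir-182 (-0.84, adjusted p = 0.39) and mir-183 (-0.34, adjusted p = 0.69) not among them. On the RPM as deposited the listed miRNAs of other cells were lower in PANDORA-seq as well. In LCD-fed mice 5 of 5 hepatocyte, 3 of 3 other epithelial, 1 of 1 endothelial, 5 of 5 blood and 6 of 6 stellate miRNAs tested were called lower. Their median log2 fold changes were -4.99, -3.85, -7.30, -2.84 and -5.33, and 70.5% of RNAs were called lower. In HCD-fed mice 5 of 5, 2 of 3, 1 of 1, 3 of 4 and 6 of 6 were, with medians of -4.19, -2.73, -6.84, -2.15 and -4.68, and 61.5% of RNAs were called lower. The hepatocyte miRNAs reached 1 RPM in every PANDORA-seq library, the lowest value being 1.07 RPM for mir-194-1 in HCD-fed mouse 17. In PANDORA-seq of LCD-fed mice mir-375 was at most 0.587 RPM and mir-31 at 0.168 to 1.99 RPM. mir-31 was at most 0.702 RPM in HCD-fed mice. These passed the filter through traditional-seq, which set their direction. For the other lists the methods were not separated.

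The likeness of each cluster's most abundant member to 160 other miRNAs was described over the 9 traditional-seq libraries by the SD of the log2 ratio, a small SD meaning that the ratio was steady. For mir-182 the most alike was mir-183, at 0.34, followed at a distance by mir-92a-2 (1.01) and mir-802 (1.03). For mir-200b the most alike were mir-143 (0.33), mir-7b (0.35) and mir-7a-1 (0.35), all from other loci. Its relatives mir-200c, mir-141 and mir-200a took places 9, 21 and 56. For mir-141 they were mir-361 (0.31), mir-210 (0.33) and mir-99a (0.36), with mir-200a, its partner by seed, in place 11 and mir-200c, its neighbour in the genome, in place 102. mir-183 and mir-182 stood at places 155 and 156 for both mir-200b and mir-141. The 9 libraries pool both diets, so for mir-182 and mir-183 the SD includes their difference between the diets already given. Likeness within a diet was not described.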

How the data were processed

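The labels gave the diet, the method and the mouse of each liver small RNA library (9 mice). The authors assigned the reads with SPORTS (version 1.1.0, 1 mismatch allowed) to mm10 and deposited 1 table of RPM values, 1 per miRNA precursor. Empty cells (11673) were read as 0. Of the low values 67.6 to 81.5% per library were whole multiples of 1 read (within 0.02), too few to recover counts, so no count test was run. With 1 read worth 0.0392 to 0.517 RPM, values near 1 RPM rest on few reads. Floors of 3 reads cover counting error only.

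RNAs with at least 1 RPM in as many libraries as the smaller group holds were tested with limma (3.58.1, R 4.3.3, mean-variance trend) on log2(RPM + 1), with Benjamini-Hochberg adjustment over all RNAs tested at 0.05. Diet comparisons used TMM scaling (trims of 30% and 5%, own code) and method comparisons the RPM as deposited. Ratios within a library were tested by exact permutation (two-sided), of mice between the diets. Between the methods the libraries were permuted as if separate, without the pairing by mouse, and an exact sign-flip test by mouse was an alternative. The main limma fits between the diets and between the methods were tested on simulated data. The fit of the difference of diet effects and the alternatives were not. Alternatives were other scalings, a pseudocount of 0.25, no filter or one at 5 RPM, no trend, all 18 libraries in the fit, leaving out each library, and a replicate block by mouse. Scaling by miRNA reads without miR-122 and miR-148a was added after seeing the data. The libraries of a mouse pair because the methods describe them as made from the same eluted RNA. Deviations from the group means correlated only weakly within a mouse, with r of 0.0858 to 0.397, over 0.1 in 8 of 9 mice. The best-matching traditional-seq library of the diet was that of the same mouse in 5 of 9. Mice 1, 3, 4 and 15 matched another mouse best, so the values alone do not establish the pairing. Python 3.11.15, numpy 2.4.6, pandas 2.3.3 and matplotlib 3.10.9 were used. By rule the text names all 8 members in every comparison, the members of other lists that passed, and the 3 most alike miRNAs. It gives the listed miRNAs that passed between the methods by counts and medians, with PANDORA-seq values for some of them. The members and lists were chosen with earlier results of these data known. Each mouse gave 1 library per method.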

Additional observations from a re-analysis of the deposited data

Results flagged for a closer look

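Of 32 sets of a member in a group, 5 held a library far from the rest by Dixon's criterion, which flags about 1 set in 20 by chance. mir-141 was at 96.7 RPM in the traditional-seq library of LCD-fed mouse 5, where the next of the group had 42.5 RPM. mir-200c was at 0.890 RPM in the PANDORA-seq library of LCD-fed mouse 5, where the next had 0.245 RPM. The other 3 are single libraries above 0 among libraries at 0 in PANDORA-seq: mir-429 at 0.234 RPM in HCD-fed mouse 18, mir-429 at 0.297 RPM in LCD-fed mouse 5, and mir-96 at 0.0954 RPM in HCD-fed mouse 16.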

How the results depend on the processing

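For the diets in traditional-seq, 3 members were called under TMM, with RPM as deposited, by either miRNA total, with a pseudocount of 0.25, without the trend and with all 18 libraries in the fit, 2 with a filter at 5 RPM (6 members tested), 0 with no filter (1100 RNAs tested, 3 members at an unadjusted p under 0.05), and 0 to 3 without 1 library. In PANDORA-seq 0 members were called, against 3 by miRNA reads, 1 without miR-122 and miR-148a in the total, and 0 to 1 without 1 library. For the methods in LCD-fed mice 8 calls became 1 by miRNA reads and 0 without miR-122 and miR-148a (1 at an unadjusted p under 0.05), where mir-200b (0.12) and mir-182 (0.33) turned positive. In HCD-fed mice 7 calls became 5 under TMM, 4 by miRNA reads and 1 without miR-122 and miR-148a. There mir-183 turned positive at 0.25 by miRNA reads and 1.05 without those miRNAs, and mir-182 at 0.60. The difference of diet effects gave 0 calls, and 2 with RPM as deposited. Beyond scale and number of RNAs tested, the causes were not tested.

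With the replicate block by mouse the methods gave 8 calls in LCD-fed and 7 in HCD-fed mice and the difference of diet effects 0, so the block changed no call of a member, while over all RNAs it gave 24 calls against 13. Counts over all RNAs also moved for the diets in PANDORA-seq (63, against 113 by miRNA reads, 13 with no filter and 23 to 65 without 1 library), the diets in traditional-seq (51, against 10 with no filter, 24 with all 18 libraries and 20 to 58 without 1 library), the methods in LCD-fed mice (300, against 192 by miRNA reads) and the difference of diet effects (13, against 53 with RPM as deposited, 20 without miR-122 and miR-148a and 4 at a filter of 5 RPM). The split of higher and lower calls moved from 26 and 37 to 0 and 113 by miRNA reads in PANDORA-seq, from 71 and 229 to 135 and 57 for the methods in LCD-fed mice, and from 57 and 192 to 120 and 80 in HCD-fed mice. Of 1033 values of single members or ratios under alternatives, 928 kept sign and side of the threshold, 41 fell short of it, 7 newly passed and 57 changed sign, 52 of them values that were not called under either setting. Depth limits mir-429 and mir-96 in PANDORA-seq. Of the 144 member values of both methods 15 are 0, all of them in PANDORA-seq and for mir-429, mir-96 or mir-200c.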

Other observations

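Among other epithelial miRNAs, chosen here after their values were seen, mir-31 had 11.7, 12.8, 5.63 and 3.97 RPM in HCD-fed mice 15 to 18, against 19.6, 52.96, 19.5, 13.2 and 29.7 RPM in LCD-fed mice 1 to 5 by traditional-seq. The HCD values lay wholly below the LCD values, as for 17.5% of the RNAs tested. The log2 fold change of -0.90 under TMM had an adjusted p of 0.16 in limma. mir-34b and mir-34c, cut from a common primary transcript and known from multiciliated epithelia, were highest in LCD-fed mice 2 and 5, with 4.86 and 6.48 RPM for mir-34b and 8.40 and 8.04 RPM for mir-34c, and the other 3 LCD-fed mice had 0.517 to 0.914 RPM for mir-34b and 0.942 to 1.21 RPM for mir-34c. The same mice were the highest of LCD for mir-31, mir-200b, mir-200a, mir-429, mir-200c and mir-141. They were also the highest for mir-96 of the miR-183 cluster (5.51 and 5.22 RPM), whereas mir-182 and mir-183 were highest in LCD-fed mouse 3. In the libraries of mice 2 and 5 miR-122 made up 30.2 and 36.6% of miRNA reads, against 49.7 to 58.3% in the other LCD libraries. Their TMM scaling factors were 1.88 and 1.63, against 0.818 to 1.13. mir-203, by far the most abundant of the list, had 330 to 684 RPM in HCD-fed and 401 to 783 RPM in LCD-fed mice.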
